A study of Mus musculus with 4 samples.

Results

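The genes described here encode the proteasome, with its activators, its inhibitor and its assembly factors. They were chosen by name alone, as every non-control spot on the arrays whose gene name begins with Psm, a letter from a to g and a digit. The rule found 70 spots, 61 probes and 49 gene names, of 59305 spots, 55681 probes and 36315 gene names in all. A probe was kept if the scanner software placed it well above background throughout 1 group or the other, which 60 probes of 48 names were. The exception was the single probe of Psmb11, the catalytic subunit of the thymus cortex, which was not well above background on any array. All 48 names that were kept were well above background on all 4 arrays, so the filter did not pick them by group. One name, Psmc3ip, fits the pattern but belongs to a protein of meiotic recombination. It is given apart, which leaves 47 proteasome genes of 17555 genes tested.

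The cells were 32D-EpoR, a mouse myeloid progenitor line that depends on interleukin-3 and carries an introduced receptor for erythropoietin (Epo), the hormone of red cell formation. One group received Epo at 10 U/ml after the conditioned WEHI medium had been withdrawn, and the other was withdrawn in the same way and received none. The sources used here give neither the time with Epo nor whether the line is 1 clone. Each group had 2 single-colour arrays, from 2 experiments on cells of different passages, and all 4 lay on 1 slide with 1 scan. Since every value comes from a whole culture, fewer cells of a type and less RNA per cell cannot be told apart. Of 11 markers of myeloid progenitors, 10 were well above background on all arrays and Kit was on none. Among these 10 the granulocyte factor Cebpa fell with Epo (a log2 change of -0.74, limma adjusted p 0.0267) and the cytokine receptor gene Csf2rb2 rose (0.49, adjusted p 0.0448), the median change was -0.32, and with the replicate block 5 fell and 1 rose. None of 4 B cell markers was detected on any array, while 3 of 5 erythroid, 3 of 5 macrophage and dendritic cell, 2 of 4 T cell and 1 of 5 stromal markers were detected in both groups. Among the markers of other cell types, the T cell markers Cd4 and Cd3e (-0.81 and -1.14), the stromal Pdgfrb (-2.45) and the macrophage marker Csf1r (-0.79) fell with Epo in log2 terms and the macrophage marker Adgre1 rose (1.03), and the part of these markers in the results below was not tested. The arrays with Epo were brighter: the 75th percentile of intensity was 347 and 454 with Epo and 224 and 250 without Epo. Every value below is a log2 signal after that percentile was set equal on the 4 arrays, and every change is Epo minus no Epo on that scale, so it is relative to the bulk of the array's probes. Signals of different probes depend on the probe and are not set against each other.

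The proteasome degrades proteins that carry ubiquitin. Its barrel-shaped core particle is a stack of alpha and beta rings, with the proteolytic sites inside the beta rings, and a regulatory particle made of a base and a lid sits on its ends. The lid holds the enzyme that removes ubiquitin, and the ATPases of the base unfold the substrate and thread it into the core. Other caps can take the place of the regulatory particle, and dedicated chaperones that leave the finished particle guide its assembly. In cells of the immune system and after interferon, other catalytic subunits can replace the constitutive ones and form the immunoproteasome, which alters the peptides available for MHC class I.

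With Epo, 5 of the 47 proteasome genes rose and 0 fell by limma at an adjusted p of 0.05. These were the core assembly factors Psmg3 and Psmg1, the lid subunits Psmd12 and Psmd11, and the immunoproteasome subunit Psmb10. Among all genes tested 13.1% rose and 14.3% fell, so 10.6% of proteasome genes rising is a share near the background. The largest rise was 2.02-fold. An unadjusted limma p under 0.05 was reached by 9 of the 47, all of them higher with Epo. Among all 17555 genes 7502 reached it, in either direction. Without any 1 of the 4 arrays fewer genes were called, among the 47 and among all genes alike. The change of Psmg3 then ran from 1.01 to 1.02, and the median of the 47 genes from 0.16 to 0.18. With no filter on dim probes 0 of all 36310 genes were called, the proteasome genes among them. With the filter and all 4 arrays, the changes of the 47 genes ran from -0.15 to 1.02, with a median of 0.16. The median over all genes tested was -0.062. Of the 47 genes 42 lay above 0 (89.4%), compared with 45.2% of all genes. Both arrays with Epo lay above both without for 26 of the 47 genes (55.3%), where 30.4% of all genes did so, and below for 2 of 47 (4.26%), where 38.4% of all genes did so. These positions move with the scaling: the median of the 47 genes was 0.032 with the percentile taken over detected probes and 0.90 without scaling, and the median of all genes moved with it to -0.19 and 0.68. The calls moved likewise, with 3 of the 47 higher and 10.7% of all genes higher and 20.8% lower over detected probes, and 42 of the 47 higher and 46.9% of all genes higher and 2.07% lower without scaling. Such scalings shift all genes by 1 amount, so by construction the median of the 47 genes stays 0.22 above that of all genes. With the replicate number as a block, which compares cells of the same experiment, 10 of the 47 rose (21.3%) and 0 fell, where 19.9% of all genes rose and 23.2% fell. The further 5 were Psma3, Psmc6, Psmd6, Psmd14 and Psmg2. With the normexp background 14 of the 47 rose and 0 fell, where 15.8% of all genes rose and 20.7% fell. The probes of the proteasome genes were bright, with a median log2 signal of 13.5, compared with 9.48 for all genes tested. Among all genes with a signal above 15 the median change was -0.27 and 1.64% rose, whereas the 12 proteasome genes above 15 had a median of 0.079 and 1 of them rose. Between 12 and 15 the medians were 0.17 for 23 proteasome genes and 0.025 for all genes. At or below 12 they were 0.19 for 12 proteasome genes and -0.058 for all genes. In these lower bands 3 of 23 (13%) and 1 of 12 (8.33%) proteasome genes rose, beside 13.4% and 13.9% of all genes. The part of signal strength in the result was not tested.

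**Figure D1:**
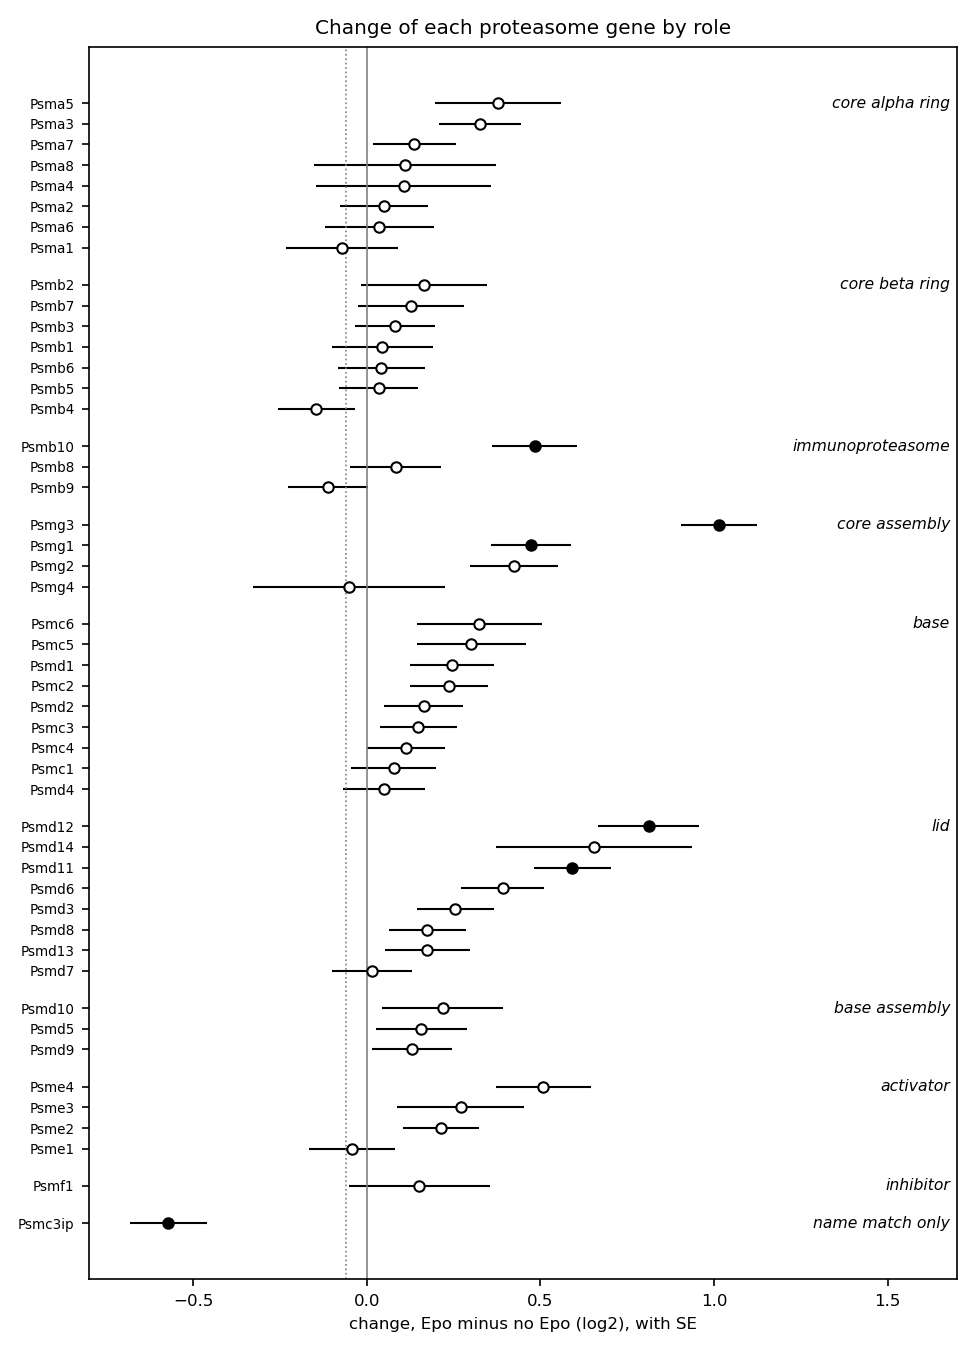
Change of each proteasome gene, Epo minus no Epo on the log2 scale, with its SE from limma, grouped by role, and filled where the adjusted p was under 0.05. The dotted line marks the median of all genes tested (-0.062), and 4 of the 5 filled points on the right belong to the core assembly factors and the lid, with Psmb10 the other one, while Psmc3ip stands alone at -0.57.

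The factors that assemble the core particle held the largest change. Psmg3 and Psmg4 form one pair of chaperones of the alpha ring, and Psmg1 and Psmg2 form the other. Psmg3 read 13.37 and 13.37 with Epo and 12.36 and 12.35 without Epo, a rise of 1.02 ± 0.11 (SE) with a limma adjusted p of 0.00809. The groups stood apart by about 1 unit, far more than the spread within each. Its partner Psmg4 read 11.66 and 11.07 with Epo and 11.66 and 11.18 without Epo, and the groups overlapped almost completely. Its change was -0.052 ± 0.28 (SE; adjusted p 0.901), and its signal was lower in replicate 2 of both groups. Psmg1 read 13.73 and 13.79 with Epo and 13.24 and 13.33 without Epo, a rise of 0.47 ± 0.12 (SE; adjusted p 0.0445). This call lies at the edge of the threshold and was lost without any 1 of the 4 arrays, with an adjusted p as high as 0.215 over 13 alternatives. Psmg2, the partner of Psmg1, read 11.97 and 11.84 with Epo and 11.56 and 11.41 without Epo. Its change of 0.42 ± 0.13 (SE) was close to that of Psmg1 without passing (adjusted p 0.0721), and it passed with the replicate block (0.0297). In the pair of Psmg1 and Psmg2 both arrays with Epo thus lay above both without. In the pair of Psmg3 and Psmg4 this held for Psmg3 and not for Psmg4. Such a position was common, since 30.4% of all genes lay above in this way and 38.4% lay below. Whether the changes within a pair differ was not tested.

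The lid came next, with 2 of 8 subunits called higher (25%), 0 lower and a median change of 0.32. Among all genes 13.1% rose and 14.3% fell. The lid subunit Psmd12 read 14.79 and 14.75 with Epo and 14.10 and 13.81 without Epo, a rise of 0.81 ± 0.15 (SE; adjusted p 0.022). Psmd11, a lid subunit that helps to hold the regulatory particle on the core, read 11.97 and 12.02 with Epo and 11.39 and 11.42 without Epo. It rose by 0.59 ± 0.11 (SE; adjusted p 0.0242), and the arrays of each group lay within 0.1 of each other. The call of Psmd11 was lost without any 1 array, and that of Psmd12 without replicate 1 or 2 with Epo or replicate 2 without Epo, at adjusted p-values between 0.0577 and 0.132. Psmd14, the deubiquitinating enzyme of the lid, read 12.50 and 11.90 with Epo and 11.80 and 11.29 without Epo. Its change of 0.66 ± 0.28 (SE) did not pass (adjusted p 0.152), and replicate 2 lay below replicate 1 in both groups. Within the replicate numbers the differences were 0.70 and 0.61, and with the replicate block the adjusted p was 0.0176. Without 1 array its change ran from 0.36 to 0.95. Psmd6 read 12.55 and 12.61 with Epo and 12.12 and 12.25 without Epo and changed by 0.39 ± 0.12 (SE; adjusted p 0.0734, or 0.0353 with the replicate block). Psmd3, Psmd8 and Psmd13 lay higher on both arrays with Epo, at changes of 0.25, 0.17 and 0.17 that did not pass. Psmd7, the inactive partner of Psmd14, read 12.79 and 12.68 with Epo and 12.71 and 12.74 without Epo, and its change was 0.015 ± 0.12 (SE). Sem1, the smallest lid subunit, whose name lies outside the pattern, changed by -0.15 ± 0.11 (SE; adjusted p 0.345).

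**Figure D2:**
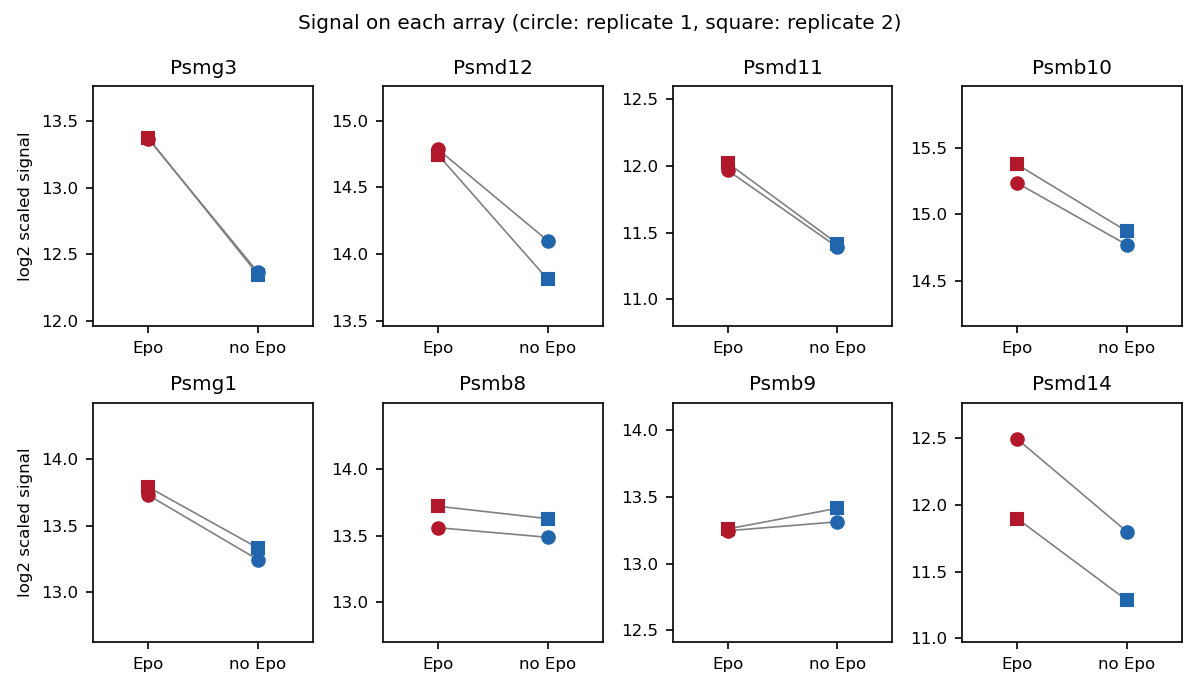
Log2 scaled signal on each array for the 5 genes that rose, for Psmb8 and Psmb9, and for Psmd14, with Epo on the left and no Epo on the right, circles for replicate 1, squares for replicate 2, and lines joining the arrays of 1 replicate number. All panels span the same range of 1.8 units, Psmg3 shows the widest gap between the groups, and Psmd14 shows parallel lines with replicate 2 below replicate 1.

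The probes that gave the lid results are shown because they let the reading be traced to its position. Their positions are those of the array files, on mm9 and the plus strand. The file positions of the Psmd11 probe and of the second Psmd12 probe cover 515 and 637 bases for 60 bases of probe, so each skips a stretch of genome, whereas the first Psmd12 probe is unbroken. The order is Psmd11 (chr11:80283406-80283920), the Psmd12 probe that stands for the gene (chr11:107358963-107359022) and the second Psmd12 probe (chr11:107347092-107347728).
Psmd11: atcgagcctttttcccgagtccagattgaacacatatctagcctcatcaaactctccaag
Psmd12 first probe: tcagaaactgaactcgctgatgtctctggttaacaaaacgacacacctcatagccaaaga
Psmd12 second probe: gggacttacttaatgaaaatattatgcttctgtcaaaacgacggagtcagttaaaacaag

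The second Psmd12 probe gave a change of 0.75, beside 0.81 for the first. In the fit over all 23735 kept probes both were called (adjusted p 0.0191 and 0.0241). Psmd12 was thus the one proteasome gene with 2 called probes.

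The base holds the ATPase ring and the ubiquitin receptors. It had 0 of 9 subunits called by limma in either direction, 0 at an unadjusted p under 0.05 and a median of 0.16. Among all genes 13.1% rose and 14.3% fell, and 7502 of 17555 had such an unadjusted p. Of the 9 base subunits 7 (77.8%) lay higher on both arrays with Epo, where 30.4% of all genes did so, but by small amounts. The ATPase Psmc6 was 0.30 and 0.35 higher with Epo in the replicate numbers, although replicate 2 lay lower in both groups. Its change was 0.32 ± 0.18 (SE; adjusted p 0.237, or 0.0474 with the replicate block). The other ATPases Psmc5, Psmc2, Psmc3, Psmc4 and Psmc1 changed by 0.30, 0.24, 0.15, 0.11 and 0.077. A second probe of Psmc1 read 13.43 and 13.47 with Epo and 13.22 and 13.01 without Epo. It changed by 0.33 and was not called, so the place of Psmc1 among the ATPases depends on the probe. The scaffold subunits Psmd1 and Psmd2 changed by 0.24 and 0.16. The ubiquitin receptor Psmd4 read 16.57 and 16.56 with Epo and 16.45 and 16.58 without Epo, and its change of 0.050 ± 0.12 (SE) was the smallest of the base. Adrm1, another ubiquitin receptor of the base, lies outside the name pattern and rose by 0.78 ± 0.18 (SE; adjusted p 0.0381), a call lost in 6 of 13 alternatives. The chaperones of the base did not pass. Psmd10 read 11.32 and 11.12 with Epo and 11.18 and 10.82 without Epo, a change of 0.22 ± 0.17 (SE) with overlapping groups. Psmd5 read 11.50 and 11.57 with Epo and 11.48 and 11.27 without Epo, a change of 0.16 ± 0.13 (SE), and replicate 1 was nearly equal in the groups. Psmd9 read 10.48 and 10.50 with Epo and 10.30 and 10.41 without Epo, a change of 0.13 ± 0.12 (SE). Their adjusted p-values were 0.392, 0.413 and 0.44.

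Neither ring of the core particle held a called gene. Of the 8 alpha and 7 beta subunits of the constitutive core 0 were called by limma in either direction and 1 had an unadjusted p under 0.05. Among all genes 13.1% rose and 14.3% fell, and 7502 of 17555 had such an unadjusted p. The medians of the alpha and beta rings were 0.11 and 0.044. Without 1 array the median ran from -0.0095 to 0.19 for the alpha ring and from 0.0087 to 0.051 for the beta ring, and over detected probes the medians were -0.017 and -0.081. Psma5 read 14.18 and 14.10 with Epo and 13.55 and 13.98 without Epo, the highest change of the alpha ring at 0.38 ± 0.18 (SE; adjusted p 0.187), and the low reading of replicate 1 without Epo made most of it. Psma3 read 15.17 and 15.12 with Epo and 14.88 and 14.76 without Epo, with a change of 0.33 ± 0.12 (SE; adjusted p 0.108, or 0.0482 with the replicate block). Psma7, Psma2 and Psma6 changed by 0.14, 0.049 and 0.036, and Psma1, the lowest of the ring at -0.072 ± 0.16 (SE), read 14.26 and 14.08 with Epo and 14.40 and 14.09 without Epo. Psma8, the alpha subunit of the testis, changed by 0.11 ± 0.26 (SE). In the beta ring the subunit with the highest change was Psmb2, which has no catalytic site, at 0.16 ± 0.18 (SE), and it read 11.51 and 11.20 with Epo and 11.34 and 11.03 without Epo. Psmb3 and Psmb1, which have none either, changed by 0.082 and 0.044. Psmb4 read 16.96 and 16.93 with Epo and 17.06 and 17.12 without Epo, and its change of -0.15 ± 0.11 (SE; adjusted p 0.378) was the lowest of the 47 genes, though it lay at 0.16 under quantile normalization and at 0.60 without scaling. Pomp, a chaperone that joins the beta rings and lies outside the name pattern, changed by 0.017 ± 0.11 (SE). The median of the lid was higher than those of the base and of both core rings. This order held with the normexp background, under quantile normalization and without any 1 array. The percentile over detected probes and no scaling shift every gene by 1 amount, so they could not change it. The classes share their arrays, and the difference between them was not tested.

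Of the 3 immunoproteasome subunits, Psmb10 rose and Psmb8 and Psmb9 were not called. Each takes the place of 1 constitutive catalytic subunit: Psmb8 that of Psmb5, Psmb9 that of Psmb6, and Psmb10 that of Psmb7. Psmb10, which cuts after basic residues, read 15.24 and 15.38 with Epo and 14.77 and 14.87 without Epo. Its rise was 0.48 ± 0.12 (SE; adjusted p 0.0493), and both arrays with Epo lay above both without. The call is at the edge: its adjusted p was 0.0548 in the fit over all probes, and it was lost without any 1 of the 4 arrays. Psmb8, which cuts after hydrophobic residues, read 13.56 and 13.72 with Epo and 13.49 and 13.63 without Epo, with overlapping groups and a change of 0.082 ± 0.13 (SE; adjusted p 0.665). Psmb9 read 13.25 and 13.26 with Epo and 13.31 and 13.42 without Epo, slightly lower on both arrays with Epo, at -0.11 ± 0.11 (SE; adjusted p 0.504), though at 0.63 without scaling. Psmb8 and Psmb9 lie close together on chromosome 17, where their probes are at chr17:34337771-34337830 on the plus strand and chr17:34319174-34319233 on the minus strand of mm9. Psmb10 lies on chromosome 8. The probes of Psmb8 and Psmb9 are printed as the readers of the neighbouring pair that was not called.
Psmb8: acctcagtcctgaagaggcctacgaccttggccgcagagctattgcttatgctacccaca
Psmb9: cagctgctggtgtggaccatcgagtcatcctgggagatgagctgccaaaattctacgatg

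The constitutive partners moved little. Psmb5 read 16.39 and 16.43 with Epo and 16.42 and 16.33 without Epo, with a change of 0.034 ± 0.11 (SE). Psmb6 read 15.27 and 15.18 with Epo and 15.10 and 15.26 without Epo, with a change of 0.042 ± 0.12 (SE). Psmb7 read 13.14 and 13.38 with Epo and 13.02 and 13.24 without Epo, with a change of 0.13 ± 0.15 (SE), and replicate 2 was higher in both groups. The difference within each array between an immunoproteasome subunit and its partner was then compared between the groups, for 3 pairs. For Psmb10 and Psmb7 it was 2.05 ± 0.072 with Epo and 1.69 ± 0.080 without Epo (SD, n = 2 each), a shift of 0.36 with 0.35 and 0.36 in the replicate numbers (exact permutation p 0.33, adjusted 0.5). For Psmb9 and Psmb6 it was -1.97 ± 0.071 with Epo and -1.82 ± 0.040 without Epo, a shift of -0.15 (exact permutation p 0.33, adjusted 0.5). For Psmb8 and Psmb5 it was -2.77 ± 0.087 with Epo and -2.82 ± 0.16 without Epo, a shift of 0.049 (exact permutation p 1, adjusted 1). With 2 arrays in each group the exact two-sided test cannot give a p below 0.33. The levels of the difference depend on the probes, so only the shift between groups is read. The shift of Psmb10 against Psmb7 was over 4 times the SD within either group. Each SD rests on 2 arrays and is itself uncertain, so whether this shift differs from 0 was not settled.

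**Figure D3:**
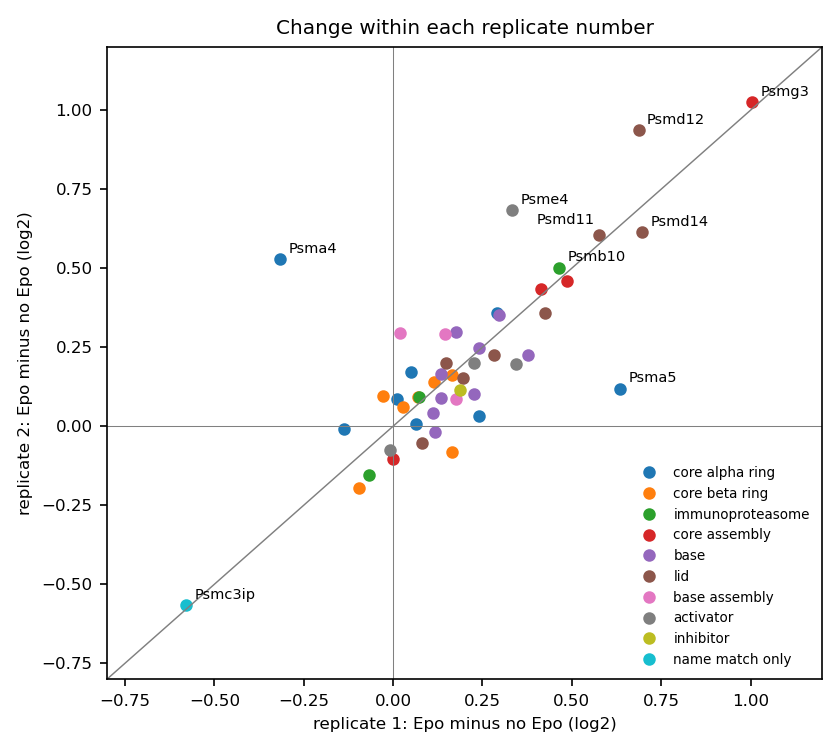
Change of each gene within replicate 1 (horizontal) and within replicate 2 (vertical), Epo minus no Epo on the log2 scale, coloured by role, with the line of equal change. Psmg3, Psmd12, Psmd11, Psmd14 and Psmb10 lie high in both replicate numbers, Psma4 has opposite signs in them, and Psmc3ip is low in both.

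Of the 4 activators, which can cap the core in place of the regulatory particle, 0 were called by limma in either direction. An unadjusted p under 0.05 was reached by 1 of them. Among all genes 13.1% rose and 14.3% fell, and 7502 of 17555 had such an unadjusted p. Psme4, a large nuclear activator, read 9.41 and 9.61 with Epo and 9.08 and 8.93 without Epo, a change of 0.51 ± 0.14 (SE; adjusted p 0.0561). Psme1 and Psme2 together form the activator that interferon induces. Psme1 read 14.06 and 14.14 with Epo and 14.07 and 14.22 without Epo, with overlapping groups and a change of -0.042 ± 0.12 (SE). Psme2 read 15.27 and 15.28 with Epo and 15.04 and 15.08 without Epo, higher on both arrays with Epo by 0.21 ± 0.11 (SE; adjusted p 0.211). Psme3, whose product forms a nuclear activator, read 11.12 and 10.74 with Epo and 10.78 and 10.55 without Epo, a change of 0.27 ± 0.18 (SE). The inhibitor gene Psmf1 read 9.75 and 10.08 with Epo and 9.56 and 9.96 without Epo, with a difference between replicate numbers that was wider than its change of 0.15 ± 0.20 (SE).

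Psmc3ip, which shares the name pattern without being a proteasome gene, read 9.47 and 9.52 with Epo and 10.05 and 10.09 without Epo. It fell by 0.57 ± 0.11 (SE; adjusted p 0.0262), although it lay at 0.17 without scaling, and its call was lost in 6 of 13 alternatives with that one counted. It was the 1 name of the pattern that fell.

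For 11 of the proteasome genes 23 kept probes could be compared, and in 6 of the 11 genes the probes differed by under 0.2. At the level of probes 6 of the 59 proteasome probes were called higher and 0 lower, beside 13.0% and 12.9% of all kept probes. Psma4, chosen here after its values were seen, is a gene whose reading depends on the probe. It read 12.65 and 13.31 with Epo and 12.96 and 12.78 without Epo, with overlapping groups. The probe that stands for it changed by 0.11 with differences of -0.32 and 0.53 in the replicate numbers, whereas its other probe read 12.91 and 13.00 with Epo and 12.50 and 12.41 without Epo, changed by 0.50 and was called (adjusted p 0.0448). Psme4 gave 0.51 and -0.020 on its 2 probes, Psmd9 gave 0.13 and 0.60, and Psmc1 gave 0.077 and 0.33. Psmg1 gave 0.47 and 0.49, of which the first was called. The third Psme2 probe, at a change of -0.75 (adjusted p 0.0676), carries a transcript accession of its own and file positions that span 219297 bases, so which transcript it reads is uncertain. The other Psme2 probes gave 0.21 and 0.34, and the mean over all 3 was -0.065.

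**Figure D4:**
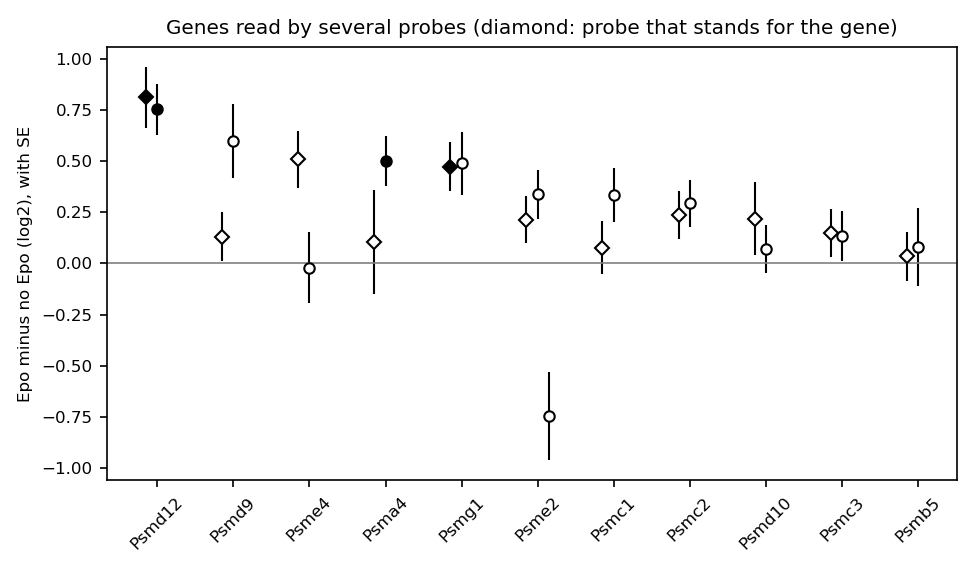
Change of each probe, Epo minus no Epo on the log2 scale with its SE, for the 11 proteasome genes with several kept probes. Diamonds mark the probe that stands for the gene and filled symbols an adjusted p under 0.05, and the Psmd12 probes lie at 0.81 and 0.75 while the third Psme2 probe lies at -0.75.

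The promoters of the 5 genes that rose are shown because these genes passed the test in the same direction. They are RefSeq sequences on GRCm38.p6, from 250 bases before to 50 bases after a start, and capitals mark any match on either strand to 6 searched motifs. The motifs were the antioxidant response element core TGANNNNGC, the NF-Y box CCAAT, the ETS core CCGGAAG, the NRF1 site (its usual palindrome), the E-box CACGTG and the STAT site TTCNNNGAA. Psmg3 is at chr5:139826845-139827144 (minus strand), Psmg1 at chr16:95990911-95991210 (minus), Psmd12 at chr11:107479278-107479577 (plus), Psmd11 at chr11:80428365-80428664 (plus) and Psmb10 at chr8:105938343-105938642 (minus).
Psmg3: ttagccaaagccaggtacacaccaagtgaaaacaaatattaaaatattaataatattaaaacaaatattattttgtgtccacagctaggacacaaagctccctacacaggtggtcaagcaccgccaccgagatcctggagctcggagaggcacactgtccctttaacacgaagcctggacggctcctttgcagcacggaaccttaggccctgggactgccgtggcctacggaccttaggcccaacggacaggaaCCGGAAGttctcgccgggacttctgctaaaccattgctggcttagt
Psmg1: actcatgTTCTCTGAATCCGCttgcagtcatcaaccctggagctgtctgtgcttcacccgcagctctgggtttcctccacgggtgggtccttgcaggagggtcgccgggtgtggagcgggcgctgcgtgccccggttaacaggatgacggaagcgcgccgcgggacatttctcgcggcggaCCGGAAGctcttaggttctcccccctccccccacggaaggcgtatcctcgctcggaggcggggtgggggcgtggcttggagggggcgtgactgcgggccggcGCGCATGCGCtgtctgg
Psmd12: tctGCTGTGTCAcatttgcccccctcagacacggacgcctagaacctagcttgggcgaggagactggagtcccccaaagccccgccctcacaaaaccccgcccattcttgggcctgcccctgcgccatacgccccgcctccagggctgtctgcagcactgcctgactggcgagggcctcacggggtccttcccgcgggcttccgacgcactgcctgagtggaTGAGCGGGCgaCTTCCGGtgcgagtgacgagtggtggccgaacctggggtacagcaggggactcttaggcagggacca
Psmd11: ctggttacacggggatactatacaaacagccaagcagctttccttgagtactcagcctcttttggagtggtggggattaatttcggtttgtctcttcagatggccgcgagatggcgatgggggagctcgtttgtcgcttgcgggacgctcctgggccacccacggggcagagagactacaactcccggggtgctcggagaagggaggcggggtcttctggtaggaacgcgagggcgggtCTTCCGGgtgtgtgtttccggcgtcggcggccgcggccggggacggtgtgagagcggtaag
Psmb10: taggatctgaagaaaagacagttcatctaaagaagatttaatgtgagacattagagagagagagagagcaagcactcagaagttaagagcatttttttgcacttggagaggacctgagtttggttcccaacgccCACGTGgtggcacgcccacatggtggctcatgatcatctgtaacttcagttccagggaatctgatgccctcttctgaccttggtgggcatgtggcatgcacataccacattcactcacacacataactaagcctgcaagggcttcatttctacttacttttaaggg

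The ETS core was found in 4 of these 5 promoters, those of Psmg3, Psmg1, Psmd12 and Psmd11, and in 15 of the 42 proteasome promoters of the table (35.7%), where 8.86% of all 32851 promoters held it. The antioxidant response element core was in the promoters of Psmd12 and Psmg1 and in 24 of 42 proteasome promoters (57.1%), with 41.3% of all promoters. In Psmg1 a STAT site overlaps that element. The NRF1 site, where NRF1 is nuclear respiratory factor 1 and not Nfe2l1, was in 7 of 42 (16.7%) against 4.6% of all promoters. The NF-Y box was in 13 (31%) against 37.4%, the E-box in 4 (9.52%) against 7.15% and the STAT site in 3 (7.14%) against 8.3%. The promoter table matched 39 of the 47 genes. These matches are of letters, and binding was not measured.

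Other genes of the pathway were read from 4 lists, which share the background of 13.1% higher and 14.3% lower. Of 11 tested partners of the proteasome outside the name pattern, 3 rose and 0 fell. Besides Adrm1 these were Ube3c, a ubiquitin ligase bound to the proteasome, and Usp14, a deubiquitinase bound to the regulatory particle. Ube3c read 10.53 and 10.21 with Epo and 9.51 and 9.33 without Epo, a rise of 0.95 ± 0.16 (SE; adjusted p 0.0197). Usp14 read 14.40 and 14.23 with Epo and 13.77 and 13.75 without Epo, a rise of 0.56 ± 0.12 (SE; adjusted p 0.0347). The groups stood apart for both, and for Adrm1, which read 12.09 and 12.33 with Epo and 11.25 and 11.61 without Epo. Of all genes 30.4% stood apart in this direction. Of 12 regulators of proteasome genes 4 rose and 0 fell, with a median of 0.018. Nfe2l1, the transcription factor that raises proteasome genes when proteasome activity is low, read 6.57 and 6.66 with Epo and 5.95 and 6.03 without Epo. It rose by 0.62 ± 0.12 (SE; adjusted p 0.0238) and was singled out after its values were seen, and with the normexp background its change was 0.16 (adjusted p 0.289). Ddi2, the protease that releases that factor in active form, read 9.74 and 9.58 with Epo and 8.87 and 8.69 without Epo, a rise of 0.89 ± 0.14 (SE; adjusted p 0.0154). The small Maf partner Maff read 8.69 and 9.04 with Epo and 5.07 and 4.24 without Epo, and Mafk read 10.23 and 10.50 with Epo and 9.76 and 9.58 without Epo. Both rose (adjusted p 0.0051 and 0.0345), Mafk by 0.70 ± 0.15 (SE). Maff was detected on 1 of the arrays that had no Epo and passed the filter through the arrays with Epo, so the size of its rise is uncertain, with a fitted change of 4.21 that was 2.27 with the normexp background. Nfe2l2, Mafg, Keap1 and Ngly1, the enzyme that removes sugars from that factor, were not called, at -0.20, 0.30, -0.12 and -0.24.

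Of 16 genes of ubiquitin supply and substrate delivery 3 rose and 0 fell, with a median of 0.0017. The 3 encode shuttles that bring ubiquitinated proteins to the proteasome: Ubqln1 at 0.94 ± 0.17, Ubqln4 at 0.66 ± 0.11 and Rad23b at 0.62 ± 0.12 (SE; adjusted p 0.0213, 0.0189 and 0.0263). Ubqln1 was 0.89 and 0.99 higher with Epo in the replicate numbers, Ubqln4 read 8.30 and 8.29 with Epo and 7.66 and 7.60 without Epo, and Rad23b read 11.14 and 11.25 with Epo and 10.51 and 10.63 without Epo. The groups stood apart for each, as they did in this direction for 30.4% of all genes. The ubiquitin genes Ubb and Rps27a were not called, at -0.38 and -0.63. Of 14 genes of MHC class I antigen processing 2 rose and 2 fell. Nlrc5, an activator of class I genes, read 10.41 and 10.13 with Epo and 9.69 and 9.37 without Epo and rose by 0.74 ± 0.18 (SE; adjusted p 0.0435). Averaged over its probes it changed by 0.25 (adjusted p 0.377), and its call was lost in 7 of 13 alternatives. Irf1, which activates immunoproteasome genes, read 11.21 and 11.08 with Epo and 11.81 and 11.90 without Epo and fell by 0.71 ± 0.12 (SE; adjusted p 0.0197), and Rfx5, a factor that binds class I and class II promoters, read 6.60 and 6.40 with Epo and 7.02 and 7.22 without Epo and fell by 0.62 ± 0.14 (SE; adjusted p 0.0397). Without scaling both lay above 0, at 0.039 and 0.13. Tap1, the peptide transporter gene beside Psmb9, read 8.46 and 8.83 with Epo and 9.22 and 9.66 without Epo, lower on both arrays with Epo by 0.79 ± 0.22 (SE) without passing (adjusted p 0.0582, or 0.0143 with the replicate block). Most of the 14 called genes of these 4 lists lost their call without at least 1 of the arrays. The change of Maff then ran from 3.79 to 4.62. Those fits kept the filter set on all 4 arrays, which Maff passed through the arrays with Epo. They could not test the part of that filter. With no filter on dim probes Maff did not pass (limma adjusted p 0.108), nor did any of the 36310 genes.

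**Figure D5:**
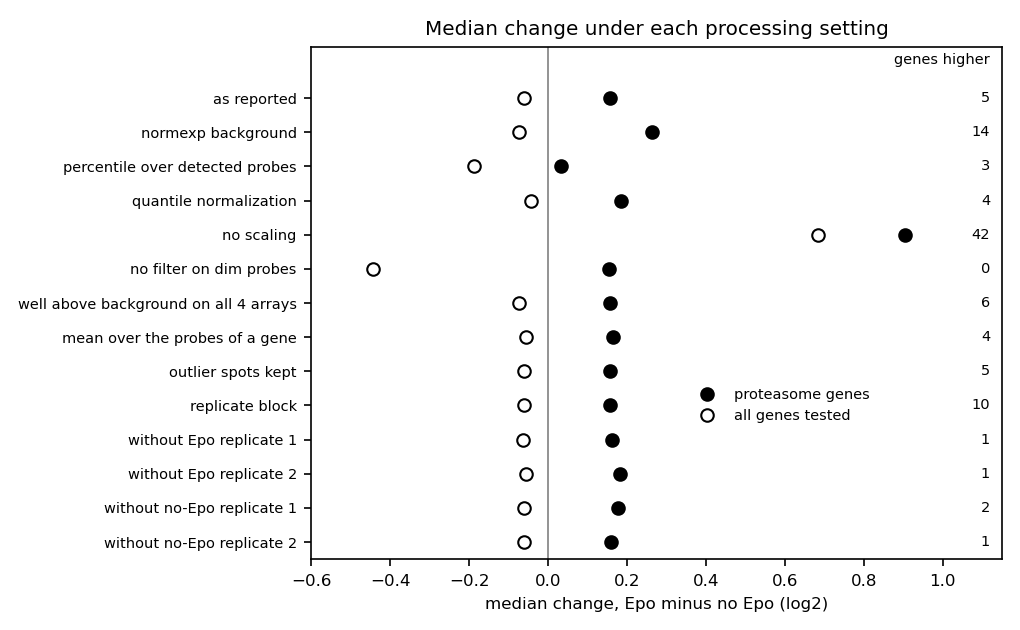
Median change of the proteasome genes (filled) and of all genes tested (open), Epo minus no Epo on the log2 scale, under each processing setting, with the number of proteasome genes called higher on the right. The filled point lies to the right of the open one in each setting, and the number of calls runs from 0 to 42.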

How the data were processed

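Total RNA was labelled with Cy3 and hybridised to Agilent mouse arrays. The authors deposited spot-level tables of Feature Extraction 10.1.1.1, with probe positions on mm9, per the file headers. The deposited values are intensity values: a processed intensity per spot, corrected for background and spatial trends with surrogate values for dim spots, and the raw mean and local background intensity, none of them scaled between arrays, per the file headers and the unequal percentiles. Limma appears in the submitters' processing notes without its role or version.

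From each array's log2 processed intensity its 75th percentile over 59305 non-control spots was subtracted, and the mean percentile of the arrays was then added to all. Outlier spots were left out (9 probes lost), no spot was saturated, and spots of 1 probe were averaged. A probe needed to be well above background on both arrays of a group, in at least 0.5 of its spots, and the probe with the highest mean stood for its gene. Of 55681 probes, 26413 were named by accession, 3859 by symbol and 735 by synonym through RefSeq (GRCm38.p6), and 24674 kept the file's name. Groups were compared with limma 3.58.1 (functions lmFit and eBayes) under R 4.3.3, as two-sided tests adjusted by Benjamini-Hochberg over the 17555 genes. There were 2 residual and 4.57 total degrees of freedom, and the median SE was 0.145. The number of arrays, 2 per group, limits the precision. The steps were tested on simulated data.

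The replicate numbers were read as the 2 experiments of the design text, which pairs the samples. Deviations of same-numbered samples correlated at 0.386 across genes, which are not independent replicates. Members and lists were chosen with earlier results of these data known. Named are all genes that rose or fell, the immunoproteasome, activator, inhibitor and assembly genes, the constitutive partners, the extremes of each class, and up to 3 rises and 3 falls of each other list, some of which are not reported here. Alternatives changed the background, scaling, filter, probe summary, outlier spots, pairing and arrays used.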

Additional observations from a re-analysis of the deposited data

How the results depend on the processing

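The 5 proteasome genes that rose became 14 with the normexp background, 3 with the percentile over detected probes and 42 without scaling. The shares of all genes that rose in these settings were 15.8%, 10.7% and 46.9%, beside 13.1% as reported. The count was 0 without a filter on dim probes. With the replicate block it was 10, beside 19.9% of all genes. Without the filter 0 of 36310 genes rose and 0 fell by limma, with 2528 higher and 4620 lower at an unadjusted p under 0.05, and 3 proteasome genes among the higher ones. Without any 1 array the count was 1 to 2 proteasome genes, and Psmg3 was among them each time. Psmg3 passed in 12 of 13 alternatives, Psmd12 in 9, Psmd11 in 8, Psmb10 in 7 and Psmg1 in 5. No proteasome gene was called lower in any alternative. Over all genes 8231 rose and 364 fell without scaling, and 3497 rose and 4068 fell with the replicate block, against 2302 and 2502 as reported. Without 1 array 1098 to 2017 rose and 1175 to 1946 fell. The median change of the proteasome genes was 0.26 with normexp, 0.032 with the percentile over detected probes and 0.90 without scaling, and 0.16 to 0.18 without 1 array.

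Some changes turned sign. The percentile over detected probes and no scaling shift every gene by the same amount, so the turns under them follow from that shift. With the percentile over detected probes Psma2, Psma4, Psma6, Psma8, Psmb1, Psmb3, Psmb5, Psmb6, Psmb8, Psmc1, Psmc4, Psmd4, Psmd7 lay at -0.076, -0.019, -0.089, -0.014, -0.081, -0.044, -0.092, -0.084, -0.043, -0.048, -0.013, -0.075, -0.11. With normexp Psma1, Psma8, Psmb4, Psme1, Psmg4 lay at 0.068, -0.16, 0.013, 0.087, 0.014, and under quantile normalization Psmb4, Psmb8, Psmd7 lay at 0.16, -0.0031, -0.075. Without scaling Psma1, Psmb4, Psmb9, Psme1, Psmg4, Psmc3ip, Irf1, Rfx5 lay at 0.67, 0.60, 0.63, 0.70, 0.69, 0.17, 0.039, 0.13. Averaged over its probes Psme2 lay at -0.065. Without 1 array the range crossed 0 for Psma6 from -0.099 to 0.17, Psma8 from -0.17 to 0.39, Psmb1 from -0.066 to 0.15, Psmb6 from -0.038 to 0.12, Psmd7 from -0.038 to 0.068, Psme1 from -0.12 to 0.034, Psma1 from -0.23 to 0.082, Psma4 from -0.23 to 0.44, Psmf1 from -0.050 to 0.35, Psmg4 from -0.35 to 0.24, Psmd4 from -0.015 to 0.12, Psma2 from -0.035 to 0.13 and Psmb5 from -0.0094 to 0.077. The shift of Psmb8 against Psmb5 ran from -0.064 to 0.16 without 1 array, an alternative chosen after seeing the data. The replicate block changed no call of a named proteasome gene other than those given in the report, and the cause of the other changes was not tested.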
